A study of Dunaliella tertiolecta with 6 samples.

Results

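Ribonucleotide reductase turns ribonucleotides into the deoxyribonucleotides from which DNA is built. The common eukaryotic enzyme pairs a large subunit, which holds the catalytic and allosteric sites, with a small subunit, in which a diiron centre generates a stable tyrosyl radical that starts each reaction. After each turnover the large subunit is re-reduced by thioredoxin or glutaredoxin. Small subunit genes are commonly switched on as cells prepare for DNA synthesis, and the enzyme is one of the iron-dependent steps of cell division.

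The genes described here are those whose name in the deposited annotation is RIR followed by a number and at most 1 letter. There are 4 of them among 14354 gene identifiers, of which 3449 carry a name. RIR1 is named as the large subunit gene, and RIR2A, RIR2B and RIR2L are named as small subunit genes. No source used here says what the L stands for, and RIR2L is placed with the small subunits by its name alone.

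Strain UTEX LB 999 of the green alga Dunaliella tertiolecta, described as wild-type vegetative cells, was grown in medium with 2 M NaCl. One group of 3 flasks received 0 µM added iron and the other group of 3 flasks received 1.5 µM, so the high salt is shared by both groups and the control is an iron-supplied culture. The cultures were shaken at 140 rpm and 24 °C in constant light. The sample titles and the series text place the RNA collection at 2 days, while the growth protocol gives 3 days. Iron carried over from the precultures was not analysed here, so "without added iron" is not the same as iron-free.

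Poly(A)-selected RNA was sequenced as 50 nt single-end reads, and expression is given as FPKM, fragments scaled to the length of the transcript and to the reads mapped in the library. FPKM sums were 808592 to 898151 per library without added iron and 982304 to 1021467 with it, and 12253 to 12509 genes had a value above 0. Read totals were not among the values analysed here. If the smallest step between low values is 1 read, the libraries hold 10200000 to 20200000 reads. The iron treatment is plain in the data: FLD1, for flavodoxin, which stands in for iron-containing ferredoxin, was at 8692 to 10306 FPKM without added iron and 10.5 to 15.3 FPKM with it. FOX1, a ferroxidase of iron uptake, was at 847 ± 78.8 FPKM (SD, n = 3) against 4.26 ± 2.86 FPKM. Markers of mating cells and zygotes known from Chlamydomonas were set beside the vegetative label. All libraries share that label, so a change between the groups cannot check it. Of 8 such genes 6 were high enough to test. None rose by limma (1 at an unadjusted p under 0.05, ZYS3) and 2 fell, EZY15 (log2 fold change -0.48) and EZY7 (-0.36). ZYS3 passed as higher with library values scaled by median ratios (0.22, limma adjusted p = 0.04484) or to equal sums (0.39, limma adjusted p = 0.007666). The EZY7 call was lost without replicate 1 of either group, under quantile normalization and with equal sums. Over all genes tested 11.6% rose and 18.7% fell. The levels of the markers were mixed. The gamete fusion gene HAP2 stood at 0.173 FPKM against 0.164 FPKM, GEX1 at 0 against 0.0442 FPKM and EZY20 at 1.90 against 2.46 FPKM. Others were well expressed in both groups: EZY7 (112 against 145 FPKM), ZYS3 (57.9 against 51.4 FPKM), EZY15 (49.8 against 69.7 FPKM), EZY14 (22.1 against 23.3 FPKM) and ZSP1 (10.2 against 12.7 FPKM).

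The small subunit genes RIR2A and RIR2B have almost the same gene model. RIR1 (Dte_g02173) lies on the plus strand of scaffold_13 from 2501941 to 2508915, with 2574 coding nt in 19 segments, or 858 codons counting the stop. RIR2A (Dte_g05518) lies on the plus strand of scaffold_01 from 10134226 to 10136675, with 1125 coding nt in 8 segments, or 375 codons. RIR2B (Dte_g05524) lies on the minus strand of the same scaffold from 10216605 to 10218972, with 1116 coding nt in 8 segments, or 372 codons. RIR2L (Dte_g05453) lies on the plus strand of scaffold_01 from 9316610 to 9321137, with 1317 coding nt in 8 segments, or 439 codons. Positions follow the deposited assembly and annotation, whose gene models hold coding segments.

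In RIR2A and RIR2B 7 of the 8 coding segments have the same length in the same order, and the first segment of RIR2A is longer by 9 nt, a whole number of codons. None of their 7 introns has the same length in both, with a range of 142 to 287 nt in RIR2A and 90 to 261 nt in RIR2B. Such a match is uncommon in this genome: of 829 nuclear genes with 8 coding segments, 18 share the lengths of all segments but the first with another gene. The 2 genes point in opposite directions, 79929 nt apart, with 5 other genes between them. RIR2L shares no segment length with RIR2A, has introns of up to 797 nt, and lies 813088 nt from RIR2A with 64 genes between.

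**Figure D1:**
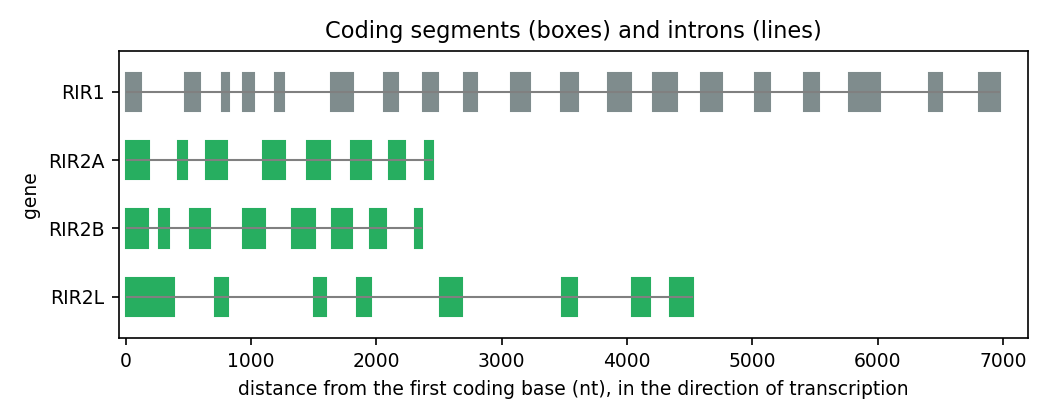
Gene models of the 4 ribonucleotide reductase genes, drawn to scale with distance from the first coding base in nt on the horizontal axis; boxes are coding segments and lines are introns. RIR2A and RIR2B have 8 boxes each, 7 of them of equal length, with different introns between, while RIR2L has 8 boxes of other lengths and RIR1 has 19.

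All 4 ribonucleotide reductase genes stood higher in every library without added iron than in any library with iron. The 3 small subunit genes rose by the test, and the large subunit gene, which did not pass in the same fit, passed with the replicate number as a block, with equal sums and without 1 of the iron libraries. RIR2A, the more abundant small subunit gene, rose 3.96-fold. Changes were tested with limma on log2(FPKM + 1) over the 11273 genes with a mean of at least 1 FPKM, all 4 RIR genes among them, with a Benjamini-Hochberg adjusted p under 0.05 as the threshold and 0 minus 1.5 µM as the direction. Fold changes on this scale understate the change of genes with few reads. Over all genes tested, 1303 (11.6%) were higher and 2105 (18.7%) lower without added iron. All libraries without added iron lay above all libraries with iron for 2208 genes (19.6%), so the separation alone is not rare.

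The large subunit gene RIR1 was at 106, 93.9 and 116 FPKM in replicates 1, 2 and 3 without added iron, and at 90.3, 43.9 and 75.3 FPKM with iron. The groups did not overlap, although 93.9 and 90.3 FPKM lie close together, and replicate 2, the lowest of both groups, is well below the other two with iron. The means were 105 ± 10.9 and 69.8 ± 23.7 FPKM (SD, n = 3), 1.50-fold apart. On the log2 scale the difference was 0.64 with an SE of 0.24 (limma adjusted p = 0.08768). With the replicate number as a block the same difference passed (limma adjusted p = 0.02662). Without replicate 2 of the iron group the log2 fold change was 0.34 and did not pass (limma adjusted p = 0.0796), and without replicate 1 of that group it was 0.85 and passed (limma adjusted p = 0.03157). It also passed with library values scaled to equal sums (0.87, limma adjusted p = 0.0263).

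RIR2A was at 222, 189 and 212 FPKM without added iron and at 70.2, 27.8 and 59.5 FPKM with iron. The lowest library without iron was thus well over any library with it, and replicate 2 was again the lowest of both groups. The means were 208 ± 17.0 and 52.5 ± 22.1 FPKM, a log2 difference of 2.06 with an SE of 0.31 (limma adjusted p = 0.002383). Of all genes tested, 67 had a larger log2 fold change. Among the genes tested the level of RIR2A moved from percentile 85.6 with iron to percentile 96.1 without. It passed in each of the 17 alternative analyses, with log2 fold changes of 1.67 to 2.32.

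RIR2B, the copy with the matching gene model, was much less abundant. It was at 26.9, 17.97 and 26.9 FPKM without added iron and at 13.1, 7.52 and 10.2 FPKM with iron. The groups did not overlap, and replicate 2 was the lowest in both. The means were 23.9 ± 5.15 and 10.3 ± 2.79 FPKM, 2.32-fold apart, a log2 difference of 1.15 with an SE of 0.22 (limma adjusted p = 0.007156). If a step is 1 read, its lowest values rest on 95.6 and 128 reads, in replicates 3 and 2 with iron. Its call was lost when replicates 1 and 2 alone were used (limma adjusted p = 0.08173, log2 fold change 1.07).

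RIR2L was at 24.0, 23.6 and 27.8 FPKM without added iron and at 15.3, 10.9 and 19.1 FPKM with iron. The groups did not overlap, and replicate 2 was once more the lowest in both. The means were 25.2 ± 2.28 and 15.1 ± 4.08 FPKM, 1.66-fold apart, a log2 difference of 0.73 with an SE of 0.18 (limma adjusted p = 0.02178). This call was lost when any 1 of the libraries without added iron was left out (limma adjusted p = 0.05412 without replicate 1, 0.05169 without replicate 2 and 0.07371 without replicate 3).

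**Figure D2:**
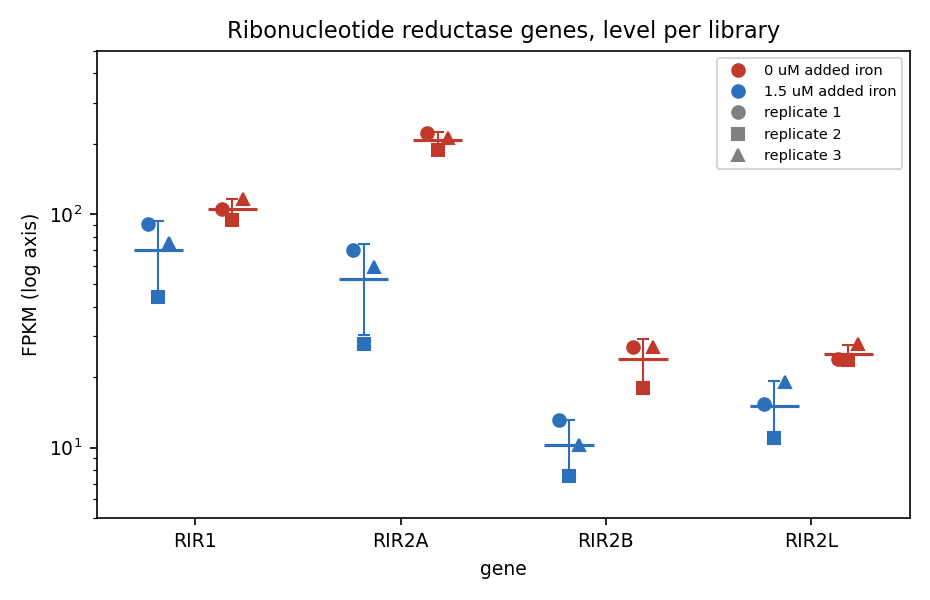
Level of each ribonucleotide reductase gene in each of the 6 libraries, in FPKM on a log axis; symbols mark replicates 1 to 3, horizontal lines the group means and bars the SD (n = 3). Every gene is higher in the 3 libraries without added iron, the gap is wide for RIR2A (189 to 222 against 27.8 to 70.2 FPKM) and narrow for RIR1 (93.9 to 116 against 43.9 to 90.3 FPKM), and replicate 2 is the lowest library of each group for all 4 genes.

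The order of the levels changed with iron. With iron RIR1 was above RIR2A in 3 of 3 libraries, and without added iron RIR2A was above RIR1 in 3 of 3 libraries. FPKM is per length, so levels of different genes may be set side by side, with a limit. In some libraries low values step as if lengths were shortened, as described below, which raises short genes such as RIR2A over longer ones such as RIR1. The RIR2A level divided by the RIR1 level was 2.10, 2.01 and 1.83 in the libraries without added iron and 0.777, 0.632 and 0.791 in those with iron. The mean log2 ratio was 0.98 ± 0.10 against -0.45 ± 0.17 (SD, n = 3), a difference of 1.42 (exact two-sided permutation p = 0.1, adjusted p = 0.15 over the 6 pairs of RIR genes). With 3 libraries against 3 this test cannot go below 0.1. A limma fit of the ratios with the replicate number as a block gave an adjusted p of 0.0001255 over the same pairs. That fit borrows its variance across only these 6 ratios, which are formed from 4 genes and so depend on each other. Its pairing is not stated by the labels, so its p-values for the ratios are uncertain.

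RIR2B and RIR2L were the 2 low genes in both conditions, and the order between them did not hold up: RIR2B was the higher in 1 of 3 libraries without added iron and in none with iron. Summed, the 3 small subunit genes were at 2.59, 2.45 and 2.31 times the RIR1 level without added iron and at 1.09, 1.05 and 1.18 times with iron. The sum was formed after the values were seen. RIR2A made up 81.3%, 81.9% and 79.5% of that sum without added iron and 71.2%, 60.05% and 67.0% with iron. The libraries do not overlap in either quantity.

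Relative to its copy RIR2B, RIR2A was 8.24, 10.5 and 7.91 times as high without added iron and 5.36, 3.69 and 5.82 times as high with iron. The difference in log2 ratio was 0.91 (exact two-sided permutation p = 0.1, adjusted p = 0.15; limma with a replicate block, adjusted p = 0.002139). Relative to RIR2L, RIR2A was 9.22, 7.98 and 7.65 times as high without added iron and 4.59, 2.54 and 3.12 times with iron, a difference in log2 ratio of 1.34 (exact two-sided permutation p = 0.1, adjusted p = 0.15; limma with a replicate block, adjusted p = 0.0001255). Against each of the other 3 genes, RIR2A stood relatively higher in every library without added iron than in any library with iron.

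The ratios of the lower small subunit genes to RIR1 differed less between the conditions. RIR2B divided by RIR1 was 0.255, 0.191 and 0.232 without added iron and 0.145, 0.171 and 0.136 with iron, without overlap (difference in log2 ratio 0.51, exact two-sided permutation p = 0.1, adjusted p = 0.15). RIR2L divided by RIR1 overlapped between the groups, at 0.228, 0.252 and 0.240 against 0.169, 0.249 and 0.254 (difference 0.09, exact two-sided permutation p = 1). RIR2B against RIR2L also overlapped (difference 0.42, exact two-sided permutation p = 0.2, adjusted p = 0.24).

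**Figure D3:**
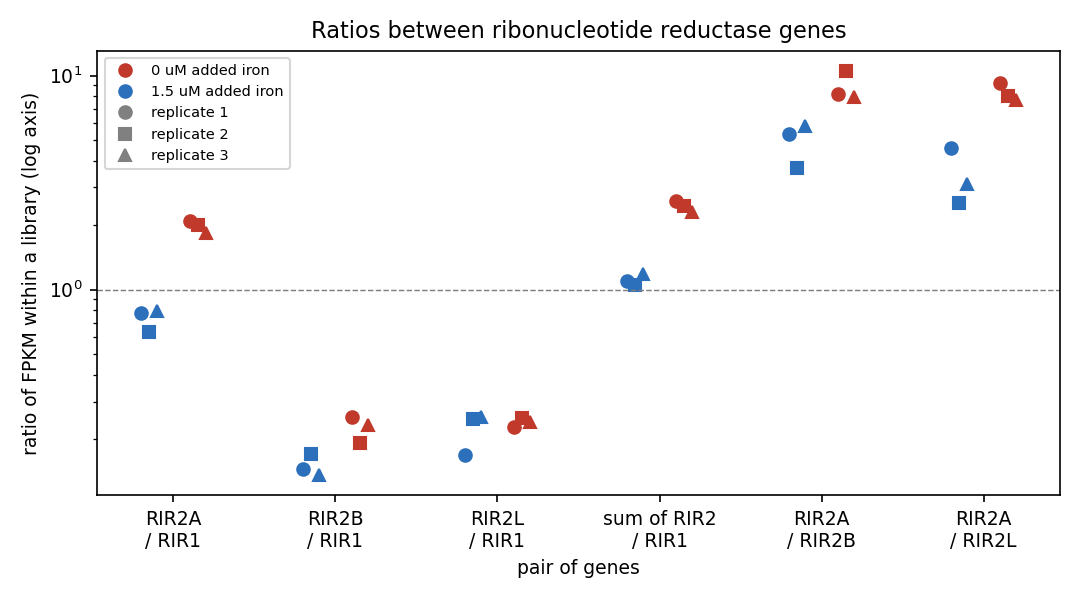
Ratio of FPKM between ribonucleotide reductase genes within each library, on a log axis, with libraries without added iron in red and with 1.5 µM in blue; symbols mark replicates and the dashed line marks equal levels. RIR2A over RIR1 crosses the line, from 0.632 to 0.791 with iron to 1.83 to 2.10 without, while RIR2L over RIR1 overlaps between the groups.

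No source used here says how 50 nt reads that match both RIR2A and RIR2B were divided, so the split between these copies is uncertain and its part in the ratio was not tested. Each RIR gene has FPKM values that no other gene repeats. In 3 libraries (replicates 1 and 3 without added iron, replicate 3 with iron) low values step as if lengths were shortened by 200 to 205 nt, which raises short genes over long ones. In the other 3, where no shortening was found, RIR2A over RIR1 was 2.01 without added iron and 0.777 and 0.632 with iron.

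Among named gene pairs that differ only by the letters A and B, the gap between RIR2A and RIR2B was wide. In 165 pairs with both members tested, the median difference in log2 fold change was 0.20 and 12 pairs exceeded the 0.91 of RIR2A and RIR2B. Pairs were formed by name alone, so they are not all gene copies: psbA with psbB and atpA with atpB are among them. Some, such as NOT2 and CPLD14, have the same values for both members in every library, so their difference is 0 by construction. Both members were higher without added iron in 9 pairs, RIR2A and RIR2B being one of them.

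Genes next to the RIR genes did not pass the test. RIR1 starts 442 nt from FAP238, a flagellar associated protein gene on the opposite strand (log2 fold change 0.27, limma adjusted p = 0.4424). RIR2A starts 337 nt from VFL1, which is needed for normal flagellar number and lies on the opposite strand (0.01, limma adjusted p = 0.9501), and is followed by the kinase gene MAPK3 (0.15, limma adjusted p = 0.1515). Of the 5 genes between RIR2A and RIR2B, 4 were tested, with values from -0.22 to 0.15 (RRM4, 0.03), and Dte_g05523, next to RIR2B, was listed at 0 in all 6 libraries. The unnamed neighbours Dte_g02174 of RIR1 (0.22, limma adjusted p = 0.218) and Dte_g05452 of RIR2L (0.19, limma adjusted p = 0.2371) did not pass, and Dte_g05525 beside RIR2B and Dte_g05454 beside RIR2L were too low to test.

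Most enzymes around ribonucleotide reductase in nucleotide supply did not pass the test. Of 14 such genes 2 rose, 2 fell and 10 did not pass, where 11.6% of all genes rose and 18.7% fell, so the counts are near those shares. The median log2 fold change of the list was -0.10 beside -0.03 over all genes tested. With equal sums, which moved the median of all genes to 0.17, 3 rose and 1 fell with a median of 0.13. The 2 that rose were ADK3 and PYR4. ADK3, for an adenylate kinase, went from 170.2 ± 5.48 to 537 ± 28.2 FPKM (log2 fold change 1.65, SE 0.06) with values of 508 to 564 FPKM in every library without added iron. PYR4, for dihydroorotase of pyrimidine synthesis, went from 15.7 ± 3.22 to 40.4 ± 3.13 FPKM (1.32, SE 0.14).

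GUA1, for GMP synthetase, was lower at 74.9 ± 4.68 against 109 ± 3.61 FPKM (-0.54, SE 0.07). PURM1 of purine synthesis fell narrowly (-0.26, limma adjusted p = 0.0244), and that call was lost without any 1 of 5 libraries, all but replicate 1 with iron. The PURM1 call was also lost with median ratios (-0.21, limma adjusted p = 0.05559) and with equal sums (-0.03, limma adjusted p = 0.7481). Values for the genes that did not pass ran from -0.21 (PYR7 and ADK6) through PURB1 (-0.20), the guanylate kinase gene GUK1 (-0.13), RPPK2 (-0.10), PYR5 (-0.08) and PYR2 (-0.02) to RPPK1 (0.00) and the uridine kinase gene URK1 (0.03). TMPK1, whose name stands for a kinase that makes thymidine diphosphate, was at -0.09 (limma adjusted p = 0.379). The list was amended after the names were seen, since its symbols as first written took in aminoacyl-tRNA synthetases. The genes added to it (PYR, PUR, GUA1, RPPK and URK1) were chosen after values were seen. PYR4, GUA1 and PURM1, which passed, are among them. As first written it held 41 genes, of which 2 rose and 19 fell.

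The thioredoxin and glutaredoxin genes split. Their list includes plastid types such as NTRC1 and TRXF2, so it is wider than the possible reductants of the enzyme. Of 20 thioredoxin, glutaredoxin and related genes, 6 rose, 5 fell and 9 did not pass, where 11.6% of all genes rose and 18.7% fell. The median log2 fold change of the list was 0.07. With equal sums 12 rose and 5 fell. NTRC1, the plastid NADPH-thioredoxin reductase that carries its own thioredoxin domain, rose from 51.6 ± 4.76 to 154 ± 0.906 FPKM (1.56, SE 0.08). NTR3, another NADPH-thioredoxin reductase gene, rose from 74.2 ± 1.53 to 126 ± 2.11 FPKM (0.75, SE 0.06). The cytosolic type of thioredoxin known to serve ribonucleotide reductase in other organisms is thioredoxin h. TRXH1 was at 817 ± 61.1 against 885 ± 41.3 FPKM and TRXH2 at 32.9 ± 3.72 against 25.7 ± 3.79 FPKM, and neither passed (log2 fold change -0.12, limma adjusted p = 0.2728, and 0.35, limma adjusted p = 0.07556). TRXH2 passed as higher without replicate 3 of the iron group (limma adjusted p = 0.03624), with median ratios (limma adjusted p = 0.04382) and with equal sums (limma adjusted p = 0.008244). TRXH1 turned to higher with equal sums (0.11) and under quantile normalization, where it passed (0.18, limma adjusted p = 0.01195). Among the plastid and other members, the glutaredoxin gene GRX3 rose (1.35) while GRX6 (-1.44) and TRXF2 of plastid enzyme regulation (-1.65) fell.

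The rise of the diiron small subunit genes ran against the other diiron enzymes of the table. Of 12 such genes 9 fell, none rose by limma (1 at an unadjusted p under 0.05) and 3 did not pass, with a median log2 fold change of -0.61. Over all genes tested 18.7% fell and 11.6% rose. With median ratios 7 fell and 1 rose, and under quantile normalization 8 fell and 1 rose. With equal sums 7 fell and 2 rose, with a median of -0.38. AAD1, for an acyl-ACP desaturase, was lower at 33.9 ± 1.12 against 137 ± 3.24 FPKM (-1.98 on the log2 scale, SE 0.06). CHL27, for a subunit of the cyclase of chlorophyll synthesis, fell from 1681 ± 50.1 to 604 ± 27.2 FPKM (-1.48, SE 0.06), and FAB2, for stearoyl-ACP desaturase, fell from 243 ± 12.1 to 103 ± 3.01 FPKM (-1.23, SE 0.07).

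Further membrane desaturase genes fell by smaller amounts, namely FAD9 (-0.62), FAD6A (-0.61), FAD6B (-0.60), FAD2 (-0.30) and FAD7 (-0.28). AOX1, the alternative oxidase of mitochondria, fell (-0.80, limma adjusted p = 0.01863), a call that was lost without replicate 2 or 3 of the 0 µM group or replicate 3 of the iron group. FAD2 lost its call with equal sums and without any 1 library other than replicate 2 of the iron group, and FAD7 under quantile normalization, with equal sums and without replicate 3 of the iron group. Median ratios ended both calls. FAD4 (0.27), PTOX2, a plastid terminal oxidase (0.12), and FADS1 (-0.13) did not pass. FAD4 passed as higher with median ratios (0.32, limma adjusted p = 0.04599) and under quantile normalization (0.30, limma adjusted p = 0.04096). It also passed with equal sums (0.50, limma adjusted p = 0.004671) and without replicate 1 of the iron group. PTOX2 passed as higher with equal sums (0.34, limma adjusted p = 0.0229). As first written the list had 14 genes tested, with 1 higher and 9 lower.

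**Figure D4:**
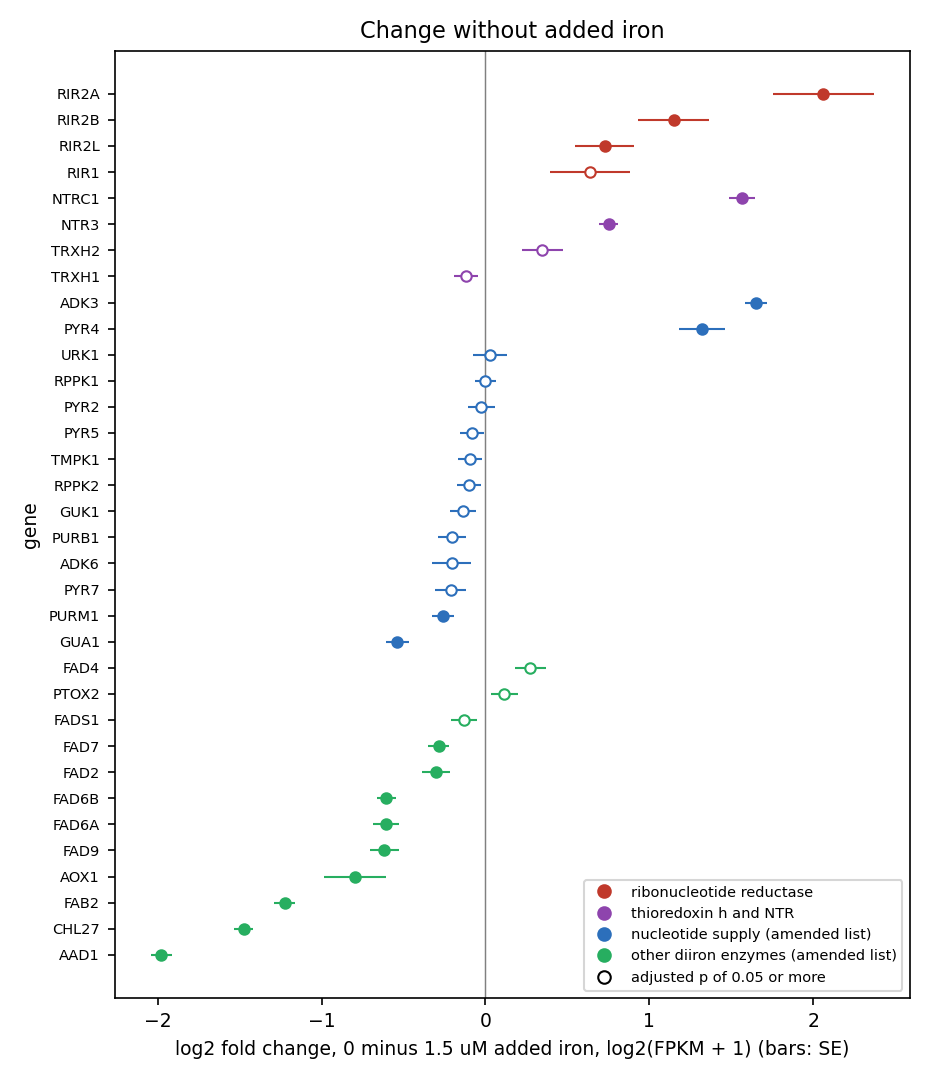
Log2 fold change, 0 minus 1.5 µM added iron, on log2(FPKM + 1) with bars of 1 SE, for the ribonucleotide reductase genes (red), thioredoxin h and NADPH-thioredoxin reductase genes (purple), nucleotide supply genes (blue) and other diiron enzymes (green); open symbols did not pass. The 4 RIR genes lie at 0.64 to 2.06, 10 of the 14 nucleotide supply genes are open, and the 9 diiron genes that passed lie between -1.98 and -0.28.

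Most replication genes did not pass, and more rose than fell. Of 38 replication genes 7 rose, 1 fell and 30 did not pass, where 11.6% of all genes rose and 18.7% fell, with a median log2 fold change of 0.16, and with the replicate block 9 rose and 0 fell. RFC4 (0.42), RFC3 (0.44) and POLA4 (0.33), for clamp loader subunits and a subunit of the initiating polymerase, were among those that rose, POLA4 losing its call without replicate 3 of the iron group. RFA2, for a subunit of the protein that coats single-stranded DNA, was higher at 73.2 ± 4.72 against 45.4 ± 8.81 FPKM, by 0.69 on the log2 scale (limma adjusted p = 0.009818). PCN1, for the sliding clamp PCNA, was higher at 113 ± 6.36 against 87.4 ± 7.84 FPKM, by 0.37 (limma adjusted p = 0.01633), a call lost without replicate 1 or 3 of the 0 µM group or replicate 3 of the iron group. The number that rose was 4 without replicate 1 of the 0 µM group or without replicate 3 of the iron group, 0 by limma with replicates 1 and 2 only (7 at an unadjusted p under 0.05), and 14 with equal sums.

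Among cell cycle and histone genes too, more rose than fell, where 11.6% of all genes rose and 18.7% fell. Of 23 cell cycle regulators 8 rose, 1 fell and 14 did not pass (median 0.26; with the replicate block 7 rose and 2 fell, and with equal sums 14 rose), with CKS1, a partner of cyclin-dependent kinases (0.53), CDC20, an activator of the anaphase-promoting complex (0.58), and CDKB1, a mitotic kinase (0.43), higher, and the kinase gene ALK3 lower (-0.70). The 8 became 5 without replicate 2 and 4 without replicate 3 of the 0 µM group, and 5 without replicate 3 of the iron group. Of 34 histone genes tested 8 rose and none fell by limma, also at an unadjusted p under 0.05 (0 genes). Their median was 0.72, and those that rose included HTB3 (1.48), HTB1 (1.32), HTB6 (1.09) and the linker histone gene HON1 (1.64). With the replicate block 17 histone genes rose, and 17 also without replicate 1 of the iron group and 18 with equal sums, against 5 without replicate 2 or 3 of the 0 µM group. Histones are a multigene family whose messages largely lack poly(A) tails in many organisms, so their values in poly(A)-selected RNA are uncertain. Their summed level was 410.0, 515 and 468 FPKM without added iron and 358, 304 and 126 FPKM with iron, so replicate 3 with iron stood apart, and its part in the histone change was not tested beyond the 9 genes that rose without it.

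Of 34 repair genes 6 rose, 2 fell and 26 did not pass, beside the 11.6% of all genes that rose and 18.7% that fell, with a median of -0.01. MSH4, of the mismatch repair family, was higher (0.67) and the photolyase family gene PHR6 was lower (-0.51). The 6 became 3 without replicate 1 or 3 of either group, and PHR6 lost its call with equal sums. In bulk RNA, more cells in a phase and more RNA per cell cannot be told apart.

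The 5 named genes most like each RIR gene over the 6 libraries were taken by Pearson r of log2(FPKM + 1). They hold 1 gene of the replication list each for RIR1, RIR2A and RIR2B and none for RIR2L. All 6 points share 1 contrast and the depth of each library, so the r values are a description. For RIR1 the closest were RFA3 (r = 0.993), another subunit of the single-strand binding protein, CRX1 (0.983), UPM1 (0.976), FBB19 (0.965) and HSPBP1 (0.964). For RIR2A they were RPN1 of the proteasome (0.996), MTP1A (0.994), RFA2 (0.993), CPLD9 (0.992) and the phosphofructokinase gene PFK1 (0.990). For RIR2B they were PCN1 (0.996), CGL62B (0.987), CGL62C (0.986), DGAT1 (0.986) and FTSH4 (0.983). For RIR2L they were BUG23 (0.986), FAP231 (0.985), BPL1 (0.984), SQS1 (0.983) and the kinesin gene KIN1B (0.979). Among the RIR genes r was 0.967 for RIR2A and RIR2B, 0.944 for RIR2A and RIR2L, 0.913 for RIR1 and RIR2A, 0.903 for RIR1 and RIR2B, 0.899 for RIR1 and RIR2L, and 0.894 for RIR2B and RIR2L.

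RFA3 was at 37.3, 34.9 and 40.3 FPKM without added iron and at 35.2, 22.1 and 32.4 FPKM with iron, so its groups overlapped and replicate 2 with iron was the low library. RFA2 was at 78.5, 69.6 and 71.4 FPKM against 52.6, 35.6 and 47.9 FPKM, with the same low library. The third subunit gene, RFA1, did not share that dip, at 9.81, 9.86 and 12.3 FPKM against 7.86, 8.97 and 8.98 FPKM. PCN1 was at 118, 106 and 115 FPKM against 95.3, 79.6 and 87.3 FPKM. RFA3, RFA2 and PCN1 were picked by their r with RIR genes over these same libraries. A low library shared with the RIR genes partly follows from that choice.

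Replicate 2 was the lowest library of both groups for all 4 RIR genes, and in both groups it had the lowest summed level of the replication genes. Replicate 2 with iron was the lowest of the 3 iron libraries for all 4 RIR genes, for 30 of 38 replication genes (78.9%) and 15 of 23 cell cycle regulators (65.2%), beside 35.0% of all genes tested. The share was also above that of all genes for other diiron enzymes (7 of 12, 58.3%) and repair genes (18 of 34, 52.9%). For nucleotide supply genes it was 5 of 14 (35.7%), and for thioredoxin and glutaredoxin genes 4 of 20 (20%). Replicate 2 with iron was the lowest for 1 of 34 histone genes, whose lowest summed level was in replicate 3 with iron. The summed level of the replication genes was 659.9, 615 and 695 FPKM without added iron and 599, 479 and 570.4 FPKM with iron. The part of replication activity in the change of the RIR genes was not tested. Without that library the log2 fold changes were 0.34 for RIR1, 1.67 for RIR2A, 0.96 for RIR2B and 0.53 for RIR2L, and the 3 small subunit genes still passed (limma adjusted p = 0.0001097, 0.01416 and 0.0231).

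**Figure D5:**
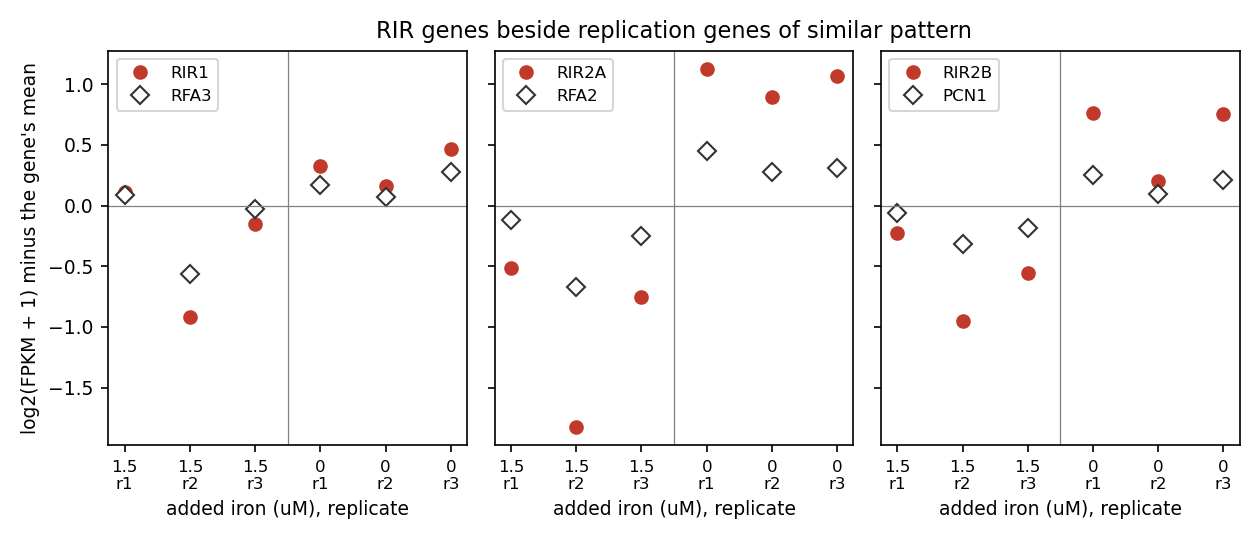
RIR1, RIR2A and RIR2B (red) beside the replication gene among the 5 most like each (open diamonds: RFA3, RFA2 and PCN1), as log2(FPKM + 1) minus the gene's mean over the 6 libraries, for replicates r1 to r3 with 1.5 µM and 0 µM added iron. Replicate 2 with iron is the lowest point of every gene shown. The replication genes were picked for their likeness over these same libraries, so the shared low point partly follows from that choice. RIR2A moves by 2.06 between the groups where RFA2 moves by 0.69.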

How the data were processed

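Expression was measured in 6 libraries of Dunaliella tertiolecta, 3 flasks for each iron level. Per the submitters' processing notes and the series text, the authors aligned reads with STAR 2.4.0j to the assembly deposited with the series and computed the deposited FPKM values with Cuffdiff 2.0.2. Read division between gene copies and the annotation method are not given in the sources used here. FPKM are not counts, so limma 3.58.1 (R 4.3.3, empirical Bayes with a mean-variance trend) was fitted to log2(FPKM + 1) for genes with a mean of at least 1 FPKM, with Benjamini-Hochberg adjustment over all 11273 genes tested and a threshold of 0.05. Ratios between RIR genes were formed per library after adding 1 FPKM and tested with exact two-sided permutation (scipy 1.17.1); printed ratios are of FPKM as deposited. The fit was tested on simulated data. Alternatives were other pseudocounts and filters, median-ratio, quantile and equal-sum scaling, other limma settings, a replicate block, replicates 1 and 2 only, and each library left out.

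The p-values measure the spread between flasks of 1 strain. Same-numbered libraries deviated from their group means together (r = 0.24, 0.26 and 0.17 over all genes), while other pairings were at -0.22 to -0.01. Deviations cancel within a group, so the negative values are not separate evidence. A pairing by replicate number is thus only a hint from the data that the labels do not state, and the block was fitted as an alternative. The main fit, the main list counts and the permutation tests have no block. The blocked value stands beside each RIR result whose call it changes. The RIR genes and gene lists were chosen with earlier results of these data known. Some lists were amended after their symbols were seen to catch unrelated genes. Named genes are all RIR genes, their neighbours, the 5 named genes most like each, all nucleotide supply and diiron genes, and up to 4 genes of smallest p in each other list, with thioredoxin h and NTR genes; RFA1, HAP2, PCN1 and the genes added to the nucleotide supply list (PYR, PUR, GUA1, RPPK and URK1) were chosen after values were seen. No genome or protein sequence was used. Not every gene taken in by this rule for naming genes of other lists is reported here; all 4 RIR genes are.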

Additional observations from a re-analysis of the deposited data

How the results depend on the processing

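RIR2A kept its direction and call under all 17 alternatives, with limma adjusted p = 0.0001097 to 0.03391. With library values scaled to equal sums, which moved the median log2 fold change of all genes from -0.03 to 0.17, RIR1 passed (0.87, limma adjusted p = 0.0263), 3189 genes were higher and 1086 lower. With replicates 1 and 2 only, RIR2B was at 1.07 and did not pass, and 549 genes were higher and 1136 lower. With the replicate block the RIR1 value of 0.64 passed by limma. So did the ratio differences of RIR2A over RIR2B (0.91), RIR2L (1.34) and RIR1 (1.42), in a fit that borrows variance across 6 dependent ratios. The block changed no other call of an RIR gene. Leaving out 1 library gave 0.34 to 0.85 for RIR1, 1.67 to 2.32 for RIR2A, 0.96 to 1.34 for RIR2B, 0.53 to 0.90 for RIR2L, -0.10 to 0.19 for the ratio of RIR2L over RIR1, 795 to 1288 genes higher and 1526 to 1910 lower. The causes were not tested.

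Among the other named genes, 1 passed in the direction opposite to its main value: TRXH1 was higher under quantile normalization (0.18, limma adjusted p = 0.01195). The other changes of sign did not pass. Scaling to equal sums turned ADK6 (0.0056), FADS1 (0.081), GUK1 (0.089), PURB1 (0.025), PYR2 (0.20), PYR5 (0.14), PYR7 (0.0073), RPPK2 (0.13), TMPK1 (0.13) and TRXH1 (0.11) positive, as median ratios did PYR2 (0.026). With replicates 1 and 2 only PYR2 was 0.020 and RPPK1 -0.0050. Leaving out 1 library gave PYR2 -0.068 to 0.047, RPPK1 -0.028 to 0.023, RRM4 -0.012 to 0.091, URK1 -0.036 to 0.12 and VFL1 -0.025 to 0.047. The list counts stayed within 1.5 times in 328 of 442 cases. The read totals behind FPKM are unknown, which limits the precision of genes as low as RIR2B.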
